A study of Mus musculus with 48 samples.

Results

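The change in gene expression between 1 and 6 months of age was described in the cerebral cortex of *Chd8* V986\*/+ mice, which carry a stop codon in place of the valine at that position in 1 copy of *Chd8*. The rule that defines this comparison is the set of 6 heterozygous (HET) samples at 6 months against the 6 HET samples at 1 month, 12 of the 48 samples of the series, across all 24444 genes of the deposited table. The series comprises male C57BL/6J mice, HET and wild-type (WT), with 6 mice in each of 8 groups formed by genotype and age (embryonic day 14.5, then months 1, 6 and 12 of life). Each sample was polyA RNA from the dissected cortex of 1 hemisphere of 1 mouse, so the RNA of neurons, glia, vessels and membranes was measured together, and fewer cells of a type cannot be told apart from less RNA per cell. All HET mice carry the germline allele in every cell, with no Cre driver. Different mice were sampled at each age, so no animal was followed over time. WT mice at 1 and 6 months are given beside the HET values as background.

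CHD8 is an ATP-dependent chromatin remodeler of the chromodomain helicase family, and heterozygous loss-of-function mutations in the human gene are among the recurrent genetic causes of autism. The first months after birth are a time of late maturation in the mouse cortex. Oligodendrocyte precursors leave the cell cycle, pass through a short newly formed stage and wrap axons in myelin, whose proteins and lipids are made in bulk early and at a lower rate once the sheaths are laid down. Over the same period neurons switch off genes of migration and axon growth, perineuronal nets form around interneurons, and microglia and astrocytes slowly take on the immune-related transcripts of the adult brain.

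*Chd8* itself (chromosome 14, 52817826 to 52857466, mm9, minus strand) separated the genotypes in every sample. Its variance-stabilized (VST) value, which is on a log2 scale, had a lowest, median and highest of 10.94, 11.05 and 11.11 in the HET mice at 1 month. At 6 months it was 10.97, 11.14 and 11.17. The WT mice of both ages lay between 11.55 and 11.87, and no HET value reached them. The level of *Chd8* in HET cortex differed by 0.06 ± 0.04 (SE) between the ages, a difference that was not called (limma, adjusted p = 0.31). *Usp11*, a deubiquitinase gene, rose by 0.20 (adjusted p = 0.0050), and *Wars2*, the mitochondrial tryptophan tRNA synthetase, changed by 0.09 (adjusted p = 0.34).

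The deposited values keep no read depth, so the counting error behind each value is unknown. Each HET sample correlated with the mean of the other mice of its group at 0.994 to 0.997 across genes. *Slc17a7*, the vesicular glutamate transporter of cortical excitatory neurons, lay between 15.14 and 15.42 in all 12 mice. For each gene the mean over replicates 1 to 3 of all groups equalled the mean over replicates 4 to 6 in the deposited values, so a difference between these 2 sets of mice had been removed, and the values within each set are given for the myelin, young neuron, collagen, stress-response and ER lists. A single mouse, 1 month replicate 3, had lower vessel markers than the other 5 mice of its group: the mean over 27 endothelial genes was 8.56 against 9.02 to 9.33, and over 27 pericyte, smooth muscle and meningeal genes 7.17 against 7.74 to 8.40. Results on these cell types are therefore given with and without that mouse. Choroid plexus transcripts, which come from tissue lying against the cortex, varied widely: *Ttr* (transthyretin) ranged from 8.98 to 13.80 at 1 month and from 7.98 to 12.39 at 6 months.

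Of the 24444 genes, 17207 passed the filter on low values and were tested, and 4609 (26.8%) were called at an adjusted p under 0.1, the threshold of the study. At 6 months 2409 genes were higher (14.0%) and 2200 lower (12.8%), and the median change over all tested genes was 0.01. Higher genes made up 52.3% of the calls, but 48.9% in replicates 1 to 3 alone and 46.7% in replicates 4 to 6 alone. Most changes were small: 85.7% of the called genes moved by less than 0.5 on the log2 scale. Only 24 called genes rose by at least 1, and 59 fell by at least 1. The 6 and 6 mice did not overlap for 1612 genes (9.37%), of which 770 were higher (4.47%) and 842 lower (4.89%).

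**Figure D1:**
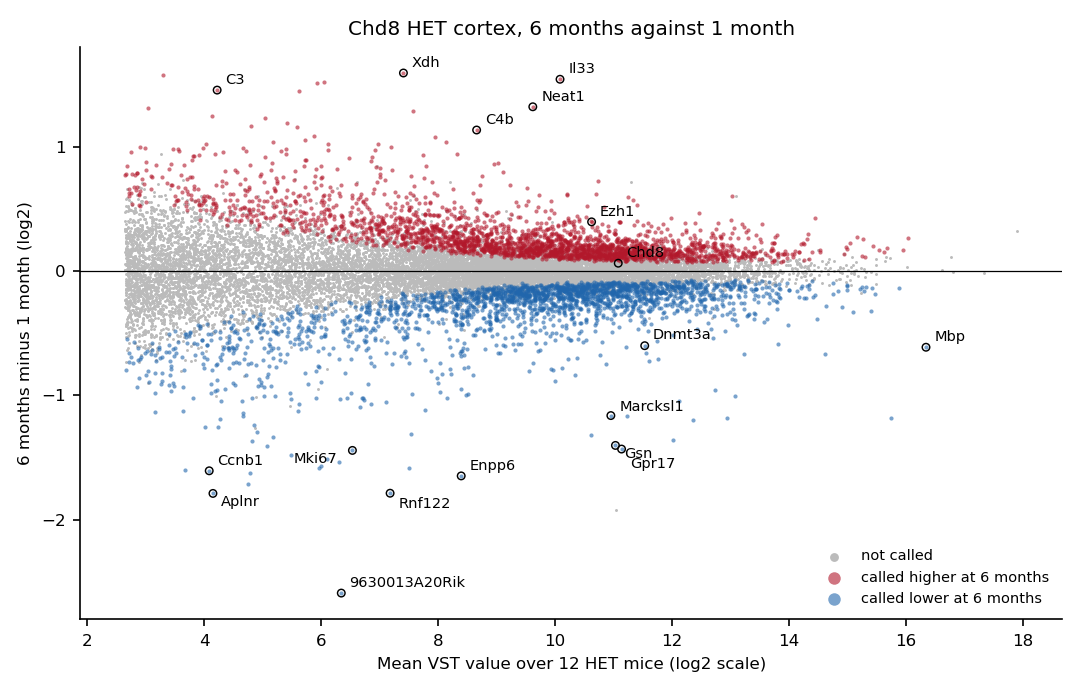
Each point is a gene tested in HET cortex, with its mean VST value over the 12 mice on the x axis and the difference between 6 months and 1 month on the y axis, both on a log2 scale. Red and blue points were called higher (2409) and lower (2200) at 6 months, and the circled genes are those described in the text.

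The largest decrease among genes with non-overlapping mice was that of 9630013A20Rik, a long noncoding RNA of the oligodendrocyte lineage. Its values at 1 month were 7.18 (lowest), 7.68 (median) and 7.91 (highest), and at 6 months 4.59, 5.06 and 5.47, and it fell by 2.59 ± 0.14 (SE; adjusted p = 1.05e-08). The transcript was thus more than 2 log2 units above its 6-month range in the typical 1-month mouse. *Rnf122*, a ring finger ubiquitin ligase gene, fell by 1.79, and *Aplnr*, the apelin receptor, fell by 1.79 from a low level (median 5.06 at 1 month). *Cldn14*, a tight junction claudin, fell by 1.71, *Il23a*, a cytokine subunit, by 1.60, *Tnnc1*, troponin C, by 1.59 and *Rab7b*, a small GTPase gene, by 1.58. *Fam83d*, whose product sits on the mitotic spindle, fell by 1.51. The remaining 4 of the 12 largest decreases were *Enpp6*, *Ccnb1*, *Top2a* and *Igfbpl1*, which belong to the groups described next.

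*Xdh*, xanthine dehydrogenase, had the largest increase among genes with non-overlapping mice. Its values were 5.94, 6.73 and 6.95 at 1 month and 7.67, 8.04 and 8.91 at 6 months, a rise of 1.59 ± 0.20 (SE; adjusted p = 5.8e-05). *Il33*, an alarmin cytokine that glial nuclei store, had a far tighter spread, with 9.19, 9.35 and 9.42 at 1 month and 10.66, 10.86 and 11.02 at 6 months. It rose by 1.54 ± 0.06 (SE; adjusted p = 8.8e-11), to 291.7% of its 1-month level. The highest 1-month mouse was more than 1 unit below the lowest 6-month mouse. *Rpe65*, a retinoid isomerase, rose by 1.53, *Fmo2*, a flavin monooxygenase, by 1.51, and the complement component *C3* by 1.46. *Neat1*, the noncoding RNA scaffold of paraspeckles, rose by 1.32 from a median of 8.95 to 10.30. The transporter *Abca8a* rose by 1.29, the lectin receptor *Cd209a* by 1.25, *Ppl* (periplakin) by 1.19 and *Exoc3l4* by 1.17. The noncoding transcript C030029H02Rik rose by 1.45 and *Gm765*, whose function is not settled, by 1.23.

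Of 28 genes of myelin and mature oligodendrocytes, 15 fell (53.6%, against 12.8% of all genes tested) and 7 rose, with a median change of -0.54 against 0.01 over all genes tested. The falls were called in similar number in replicates 1 to 3 (15) and 4 to 6 (16), whereas 4 and 1 genes rose in these sets, and 4 in one fit of all 48 samples. *Mbp*, the myelin basic protein that compacts the sheath, had values of 16.32, 16.69 and 16.85 at 1 month and of 15.84, 16.08 and 16.11 at 6 months. The lowest 1-month mouse lay above every 6-month mouse. *Mbp* fell by 0.61 ± 0.07 (SE; adjusted p = 3.6e-05), to 65.4% of its 1-month level. The largest fall in the list was that of *Gsn*, the actin-severing protein gelsolin, by 1.40, followed by the claudin of the myelin lamellae *Cldn11* (1.36 lower) and the surface glycoprotein *Mog* (1.32 lower). *Mal*, a membrane protein of myelin, fell by 1.18. The 7 genes that rose were *Apod* (by 0.40), a lipid carrier of mature oligodendrocytes, *Qdpr* (by 0.38), *Hapln2* (by 0.37), *Anln* (by 0.30), *Ndrg1* (by 0.23), *Car2* (by 0.15) and *Mbnl1* (by 0.13). *Hapln2* encodes a link protein of the matrix at nodes of Ranvier. *Apod* overlapped between the ages, with 10.70 to 11.37 at 1 month and 11.28 to 12.17 at 6 months, whereas *Qdpr* did not. *Qdpr* was also the gene of the 7 that was called in replicates 4 to 6 alone.

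Several genes of the stage between precursor and myelinating cell were also lower at 6 months. *Enpp6* (8, 48072279 to 48180249, mm9), a choline phosphodiesterase that marks newly formed oligodendrocytes, had values of 8.70, 9.28 and 9.42 at 1 month and 7.11, 7.64 and 7.75 at 6 months. It fell by 1.65 ± 0.12 (SE; adjusted p = 1.9e-07), to 31.9% of its 1-month level. *Gpr17*, a receptor of committed precursors, went from 11.54, 11.89 and 12.10 to 10.32, 10.38 and 10.68, a fall by 1.43 (adjusted p = 1.4e-08). *Bmp4*, a growth factor of the same stage, fell by 1.02. In contrast, *Pdgfra*, the growth factor receptor that defines the precursors themselves, changed by -0.13 ± 0.09 (adjusted p = 0.31), with ranges of 10.66 to 11.25 and 10.62 to 11.03 that overlapped in part. Over the 23 genes of precursors and newly formed oligodendrocytes, 13 fell (56.5%, against 12.8% of all genes), none rose and 10 were not called, with a median of -0.32.

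**Figure D2:**
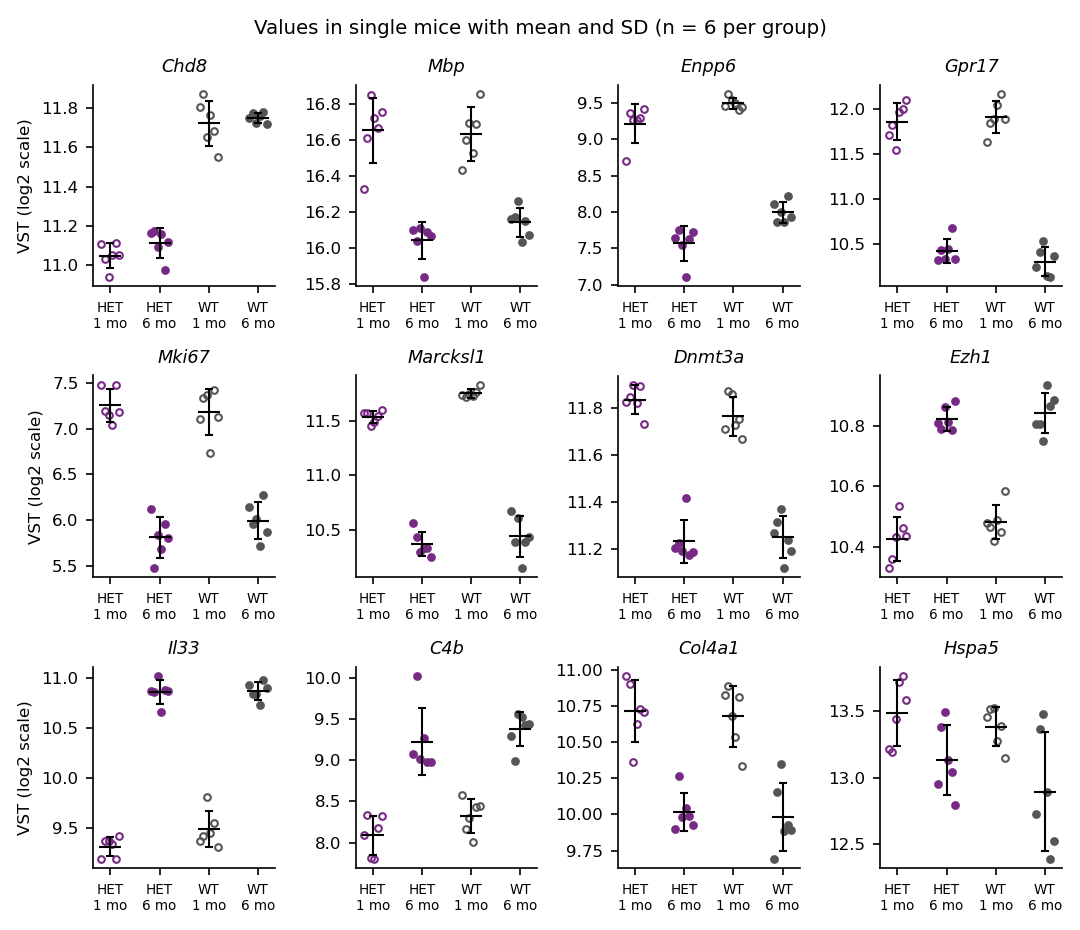
Each point is the VST value (log2 scale, y axis) of 1 mouse for the 12 genes named above the panels, in HET (purple) and WT (grey) cortex at 1 month (open) and 6 months (filled), with the mean and SD of the 6 mice as bars. *Mbp*, *Enpp6*, *Gpr17*, *Mki67*, *Marcksl1*, *Dnmt3a* and *Col4a1* were lower and *Ezh1*, *Il33* and *C4b* higher in all 6 HET mice at 6 months than in any at 1 month, and *Chd8* was lower in HET than in WT at both ages.

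The cell cycle genes that were called were all lower at 6 months. Of 30 such genes 16 fell (53.3%, against 12.8% of all genes), none rose and 14 were not called, with a median change of -0.49. *Mki67*, the proliferation marker Ki-67, had values of 7.04, 7.19 and 7.48 at 1 month and 5.47, 5.82 and 6.12 at 6 months, a fall by 1.44 ± 0.12 (SE; adjusted p = 7.1e-07). *Top2a*, the DNA topoisomerase of dividing cells, went from 6.94, 7.05 and 7.24 to 5.31, 5.45 and 6.08 and fell by 1.53. *Ccnb1*, cyclin B1, fell by 1.61 to values of 2.28 to 3.89, close to 2.1433, the value held by the 3839 genes that did not vary in any sample, where this scale understates a change. All 3 genes had non-overlapping mice.

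Genes of young neurons and growing axons moved the same way. Of 36, 23 fell (63.9%, against 12.8% of all genes), none rose and 13 were not called, with a median of -0.23. In replicates 1 to 3 and 4 to 6, 15 and 20 fell. *Marcksl1*, an actin-regulating substrate of protein kinase C, went from 11.45, 11.55 and 11.60 to 10.26, 10.33 and 10.57, a fall by 1.16 ± 0.05 (SE; adjusted p = 2.8e-10). *Igfbpl1*, a marker of neuroblasts, fell by 1.48, from 5.75, 6.23 and 6.90 to 3.97, 4.83 and 5.46. The axon guidance repellent *Draxin* fell by 1.01, the surface antigen *Cd24a* by 0.86 and the transcription factor *Sox11* by 0.37. *Dcx*, doublecortin, the usual marker of migrating neurons, changed by -0.22 ± 0.13 and was not called (adjusted p = 0.26), since its 6-month mice spread from 9.44 to 10.33 around the 1-month range of 9.76 to 10.34.

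Genes of DNA methylation and of Polycomb complex 2 moved in both directions. *Dnmt3a* (12, 3806007 to 3914443, mm9), the de novo DNA methyltransferase that methylates neuronal genomes after birth, had values of 11.73, 11.83 and 11.90 at 1 month and 11.17, 11.20 and 11.42 at 6 months. It fell by 0.60 ± 0.04 (SE; adjusted p = 1.4e-07). *Ezh2*, the Polycomb methyltransferase of dividing cells, fell by 0.54 (adjusted p = 0.00027), from 7.11, 7.17 and 7.28 to 6.52, 6.61 and 6.88. Its paralog *Ezh1*, which prevails in postmitotic cells, rose by 0.40 ± 0.04 (adjusted p = 3.7e-06), from 10.33, 10.43 and 10.54 to 10.78, 10.81 and 10.88. Neither paralog overlapped between the ages. *Uhrf1*, which guides maintenance methylation at replication, fell by 0.72, and the methylcytosine dioxygenases *Tet1* and *Tet3* by 0.51 and 0.46. In all, 6 of the 20 genes fell (30%, against 12.8% of all genes) and 4 rose (20%, against 14.0%), or 2 without 6 month replicate 2. The median was 0.04. Of the 9 CHD remodeler genes, 4 rose, none fell and the median was 0.13. *Chd1* rose most, by 0.23 (adjusted p = 0.014), and *Chd7* changed by 0.14 (adjusted p = 0.19).

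**Figure D3:**
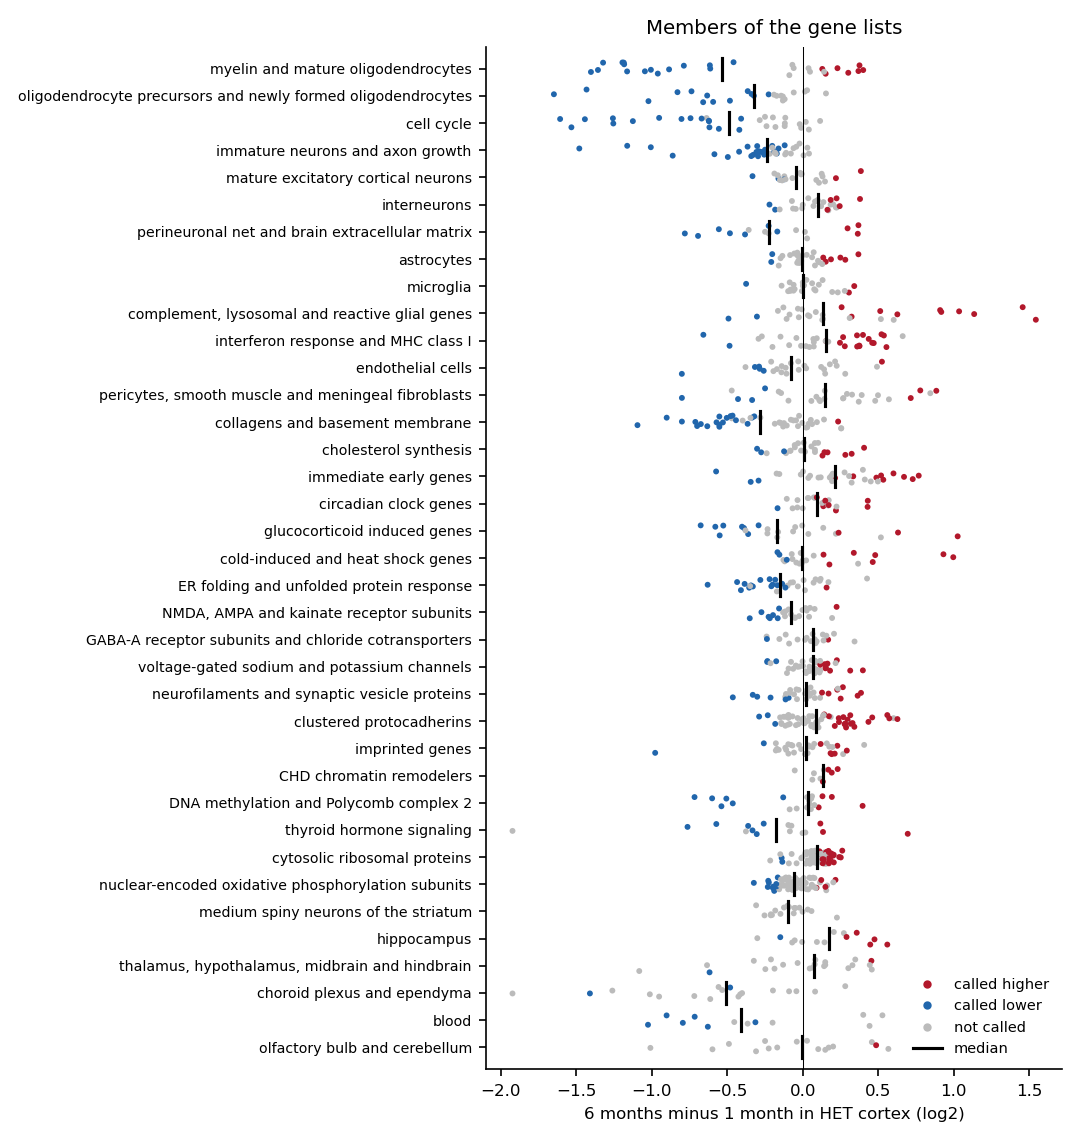
Each row is a gene list and each point a tested member, with its difference between 6 months and 1 month in HET cortex (log2) on the x axis, coloured when called, and the black bar marks the list median. The lists of myelin, precursors, cell cycle, young neurons and collagens have most called members to the left of 0, and the lists of complement, interferon response and MHC class I, protocadherins and ribosomal proteins have most to the right.

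Of 45 genes of collagens and basement membrane 19 fell (42.2%, against 12.8% of all genes), 1 rose and 25 were not called, with a median of -0.28. Without 1 month replicate 3 the counts were 20 and 0, and in replicates 1 to 3 and 4 to 6 alone 5 and 18 fell. *Col4a1*, a chain of the collagen IV network around vessels, went from 10.37, 10.72 and 10.96 to 9.90, 9.99 and 10.27 and fell by 0.70 ± 0.08 (SE; adjusted p = 3.8e-05). Its partner chain *Col4a2* fell by 0.55, the collagen chaperone *Serpinh1* by 0.63 and the matrix glycoprotein *Sparc* by 0.47. *Col3a1*, a fibrillar collagen of meninges and large vessels, fell by 1.09 ± 0.33 (adjusted p = 0.027), with 1-month mice spread over 5.85 to 8.12. *Lama2*, a laminin chain, was the gene that rose, by 0.23 (adjusted p = 0.054), and its call was lost without any of 3 single mice.

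Markers of the vessel cells are given beside the collagens, and the lists were not tested against each other. Of 27 endothelial genes 1 rose and 5 fell (median -0.08), and the counts were 1 and 9 without 1 month replicate 3 and 1 and 3 without 1 month replicate 6 or 6 month replicate 1. *Cldn5* and *Pecam1*, which define the endothelium, changed by 0.21 ± 0.21 (adjusted p = 0.53) and 0.23 ± 0.15 (adjusted p = 0.33). *Mfsd2a*, the lipid transporter of the blood-brain barrier, fell by 0.80 (adjusted p = 0.0014), and *Flt1*, a VEGF receptor, rose by 0.52 (adjusted p = 0.008). Of 27 genes of pericytes, smooth muscle and meningeal fibroblasts 3 rose and 4 fell, or 2 and 6 without 1 month replicate 3. In the main fit 22.2% of the endothelial genes and 25.9% of these were called, against 26.8% of all genes tested. In WT, 12 of the endothelial genes fell and 1 rose, 8 of the pericyte, smooth muscle and fibroblast genes fell and none rose, and 27 of the collagen and basement membrane genes fell. Single mice decided the calls of the pericyte, smooth muscle and fibroblast list in HET. Leaving out each of the 12 in turn gave 2 to 6 higher and 2 to 6 lower, with 6 higher without 1 month replicate 2. *Pdgfrb* and *Dcn*, the markers of pericytes and fibroblasts, changed by 0.14 (adjusted p = 0.50) and 0.11 (adjusted p = 0.74). The type I collagen *Col1a1* fell by 0.80 (adjusted p = 0.076), a call lost without any of 7 mice, and the organic anion transporter *Slc22a6* rose by 0.89 (adjusted p = 0.039).

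The brain's own matrix changed in part. Of 16 genes of perineuronal nets and brain matrix 7 fell (43.8%, against 12.8% of all genes) and 3 rose (18.8%, against 14.0%). The median was -0.23. *Hapln1*, the link protein of perineuronal nets, fell by 0.56 ± 0.08 (adjusted p = 0.00014), with 10.47 to 10.71 at 1 month and 9.72 to 10.23 at 6 months. *Acan*, the aggrecan core protein, changed by -0.04 ± 0.12 (adjusted p = 0.84). The largest fall was that of *Adamts4*, an aggrecanase that oligodendrocytes also express, by 0.78.

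Part of the complement, antigen presentation and interferon-related genes was higher at 6 months. Of 28 complement, lysosomal and reactive glial genes 10 rose (35.7%, against 14.0% of all genes), 2 fell and 16 were not called (median 0.13), and without 1 month replicate 3 the counts were 9 and 4. *C4b* (17, 34865325 to 34880827, mm9), a complement component made by adult oligodendrocytes and astrocytes, went from 7.80, 8.13 and 8.33 to 8.98, 9.05 and 10.03, a rise of 1.14 ± 0.16 (SE; adjusted p = 0.00011). All 6 mice at 6 months lay above all 6 at 1 month, and 6 month replicate 2 stood at 10.03 against 9.28 for the next. *C3*, the component on which the complement pathways converge, rose from a median of 3.42 to 5.01. The MHC class II genes *H2-Aa*, *H2-Ab1* and *Cd74* rose by 1.04, 0.92 and 0.91, each with overlapping mice. *Cd9*, a tetraspanin, fell by 0.49. Among 33 genes of the interferon response and MHC class I, 15 rose (45.5%), 2 fell and 16 were not called, with a median of 0.15. *B2m*, the light chain of MHC class I, rose by 0.15 (adjusted p = 0.071) and the heavy chains *H2-D1* and *H2-Q4* by 0.36 and 0.55, while *Ifi44* fell by 0.66. MHC class I genes are close copies of each other, so the share of reads given to each is uncertain.

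The markers of microglia and astrocytes are given beside these genes, and their part in the rises was not tested. Of 26 microglia genes 2 rose and 1 fell (11.5% called, against 26.8% of all genes), with a median of 0.00. The mean over the list was 8.78 to 9.01 at 1 month and 8.80 to 9.09 at 6 months. *Cx3cr1* and *P2ry12*, which define microglia, changed by -0.06 (adjusted p = 0.64) and -0.05 (adjusted p = 0.67). *Fcrls* fell by 0.38 and *Ctss*, cathepsin S, rose by 0.34. Of 28 astrocyte genes 6 rose (21.4%) and 2 fell, with a median of -0.01. *Gfap* changed by -0.04 (adjusted p = 0.79), *Sox9* rose by 0.37 (adjusted p = 0.056) and *Aqp4*, the water channel of astrocyte endfeet, fell by 0.21 (adjusted p = 0.047). The calls of *Sox9*, *Aqp4* and *B2m* were each lost without any of 3 or more single mice.

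Genes that mark neuron types were called about as often as all genes tested (26.8%). Of 20 markers of excitatory cortical neurons 2 rose and 3 fell (25% called), with a median of -0.04. Without 6 month replicate 6 the counts were 2 and 8. *Slc17a7* fell by 0.16 ± 0.04 (adjusted p = 0.0063), *Nrgn* (neurogranin) fell by 0.33 and *Rasgrf2* rose by 0.39. Of 25 interneuron genes 5 rose, or 8 without 6 month replicate 3, and 2 fell, with a median of 0.10. In the main fit 28% were called. *Gad1*, which makes GABA, rose by 0.38 ± 0.09 (adjusted p = 0.007), with ranges of 12.75 to 13.27 and 13.19 to 13.73. *Pvalb* changed by 0.14 (adjusted p = 0.34) and *Cck* fell by 0.22.

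Receptors and channels showed small changes in both directions. Of 23 NMDA, AMPA and kainate receptor and accessory genes 7 fell (30.4%) and 1 rose (4.3%), with a median of -0.08. Over all genes tested 12.8% fell and 14.0% rose. The subunits whose ratio marks the juvenile switch of NMDA receptors, *Grin2b* and *Grin2a*, changed by -0.0017 ± 0.08 (adjusted p = 0.99) and -0.09 ± 0.10 (adjusted p = 0.54). *Gria1* rose by 0.22 and the AMPA receptor accessory protein gene *Cacng4* fell by 0.35. Of 19 genes of GABA-A receptors and chloride cotransporters 1 rose (*Gabra3*, by 0.17) and 1 fell (*Slc12a2*, the chloride importer NKCC1 of immature neurons, by 0.24). The 10.5% called were below the 26.8% of all genes. *Gabra2* changed by -0.15 (adjusted p = 0.14). Of 40 sodium and potassium channel genes 9 rose (22.5%) and 3 fell (7.5%), with a median of 0.07. *Scn1a* and *Kcnc1*, channels of fast-spiking interneurons, rose by 0.23 and 0.16, the potassium channel subunit *Kcnab3* rose most, by 0.40, and *Kcnip3* fell most, by 0.24. Leaving out 1 month replicate 2 or 6 month replicate 6 left 5 of the 9 calls. Of 32 neurofilament and synaptic vesicle genes 7 rose (21.9%) and 6 fell (18.8%). *Nefh*, the heavy neurofilament of large axons, rose by 0.25 and *Syt2* by 0.39, *Cplx3* fell by 0.46, and *Syt1* changed by 0.08 (adjusted p = 0.30).

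Transcripts that neuronal activity induces were in part higher at 6 months. Of 31 immediate early genes 9 rose (29.0%, against 14.0% of all genes) and 3 fell (9.7%, against 12.8%), with a median of 0.21. *Junb*, an AP-1 subunit, went from 10.04, 10.37 and 10.64 to 10.38, 10.99 and 11.76 and rose by 0.73 ± 0.17 (SE; adjusted p = 0.0077). *Fosb* rose by 0.49 (adjusted p = 0.020), *Nr4a1* by 0.53 (adjusted p = 0.082), and *Arc*, a synaptic capsid-like protein, by 0.60 (adjusted p = 0.081). The calls of *Nr4a1* and *Arc* were each lost without any of 7 single mice. That of *Fosb* was lost in one fit of the 24 mice of both genotypes at 1 and 6 months. *Fos* changed by 0.40 ± 0.26 and was not called (adjusted p = 0.32), with 6-month mice spread from 8.90 to 11.01. *Nptx2*, a secreted pentraxin, went the other way and fell by 0.57 (adjusted p = 0.00058). The spread of these genes at 6 months was wide, and without 6 month replicate 5 the count that rose was 20 rather than 9.

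The cyclic AMP response element, the palindrome TGACGTCA that binds CREB, was found on either strand in the promoter windows (250 bases before to 50 after the RefSeq start, GRCm38.p6) of 2 of the 24 immediate early genes with a window, or 8.33%, against 2.03% of 27025 genes. Both genes rose: *Btg2*, an antiproliferative gene, by 0.77 (adjusted p = 0.031) and *Dusp1*, a phosphatase of MAP kinases, by 0.67 (adjusted p = 0.019). They were 2 of the 8 genes with a window that were called higher, and the others did not hold the motif. Their windows are shown because they hold the motif, in capitals, at -166 and -143 from the start; the first lies on chr1:134079106-134079405 and the second on chr17:26508423-26508722, both on the minus strand.
Btg2: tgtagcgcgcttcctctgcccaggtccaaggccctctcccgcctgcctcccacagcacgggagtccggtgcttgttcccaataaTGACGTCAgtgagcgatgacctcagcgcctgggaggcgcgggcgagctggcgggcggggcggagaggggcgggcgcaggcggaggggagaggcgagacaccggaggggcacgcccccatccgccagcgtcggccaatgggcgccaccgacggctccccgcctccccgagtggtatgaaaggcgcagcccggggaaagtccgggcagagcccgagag
Dusp1: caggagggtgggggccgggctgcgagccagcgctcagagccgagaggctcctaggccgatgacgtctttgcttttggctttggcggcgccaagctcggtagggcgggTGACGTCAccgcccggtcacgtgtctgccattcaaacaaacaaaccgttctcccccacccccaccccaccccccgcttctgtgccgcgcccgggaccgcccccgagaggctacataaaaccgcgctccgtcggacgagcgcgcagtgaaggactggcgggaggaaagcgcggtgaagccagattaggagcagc

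Clock genes moved as a group only slightly. Of 21 genes 7 rose (33.3%, against 14.0% of all genes) and 1 fell (4.8%, against 12.8%), with a median of 0.09. *Arntl* and *Per2*, of the positive and the negative limb of the oscillator, changed by 0.03 (adjusted p = 0.77) and -0.11 (adjusted p = 0.65). *Bhlhe41*, a repressor that binds E-boxes, went from 9.53, 10.08 and 10.21 to 10.29, 10.45 and 10.53 and rose by 0.43 ± 0.09 (SE; adjusted p = 0.0028). *Npas2* fell by 0.17 (adjusted p = 0.083). The E-box CACGTG was present in the windows of 5 of 18 clock genes (27.8%) and of 8.09% of the 27025 genes with a window, whether tested here or not. Of these 5, *Tef*, a PAR bZIP factor, rose by 0.15, *Bhlhe41* rose as given above, and the others were not called. Of the 5 clock genes with a window that were called higher, 2 held the E-box. The *Bhlhe41* window, chr6:145865371-145865670 on the minus strand of GRCm38.p6, is shown as the gene of this list that rose most, with its E-box in capitals at -153.
Bhlhe41: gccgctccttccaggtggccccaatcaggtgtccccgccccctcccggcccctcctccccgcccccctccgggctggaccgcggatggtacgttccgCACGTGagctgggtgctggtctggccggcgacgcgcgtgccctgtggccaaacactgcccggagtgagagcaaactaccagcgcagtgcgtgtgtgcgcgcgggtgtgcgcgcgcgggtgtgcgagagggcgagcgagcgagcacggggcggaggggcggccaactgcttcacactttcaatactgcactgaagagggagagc

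Stress-response genes moved in both directions. Of 23 glucocorticoid-induced genes 8 fell and 3 rose, with a median of -0.17, and leaving out any of 4 single mice (1 month replicates 5 and 6, 6 month replicates 1 and 6) left 5 of the 8 falls. *Mt2*, a metallothionein, fell by 0.68 (adjusted p = 0.00072) and *Fkbp5*, the chaperone induced by the receptor, by 0.39 (adjusted p = 0.037), whereas *Plin4*, a lipid droplet protein, rose by 1.03 (adjusted p = 0.043). *Sgk1* changed by 0.14 (adjusted p = 0.66). The list median in HET was 0.07 in replicates 1 to 3 and -0.33 in replicates 4 to 6. In WT 5 of the 23 genes rose and 2 fell, with a median of -0.01. Over all genes tested in WT 12.3% rose and 12.3% fell. Of 22 cold-induced and heat shock genes in HET 7 rose (31.8%, against 14.0% of all genes) and 3 fell (13.6%, against 12.8%). *Hspa1a*, the inducible HSP70, went from 6.32, 6.77 and 6.86 to 7.12, 7.68 and 8.27 and rose by 1.00 ± 0.15 (adjusted p = 0.00022). Its near-identical neighbour *Hspa1b* rose by 0.93, so the split of reads between these 2 genes is uncertain. The cold-induced RNA-binding genes *Cirbp* and *Rbm3* rose by 0.34 and 0.46, and *Hsph1* fell by 0.17.

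A number of chaperones of the endoplasmic reticulum were lower at 6 months, with unequal values in the 2 sets of replicates. Of 30 genes of ER folding and the unfolded protein response 15 fell (50%, against 12.8% of all genes) and 1 rose. The median was -0.15. *Hspa5*, the ER chaperone BiP, had values of 13.20, 13.51 and 13.77 at 1 month and 12.79, 13.09 and 13.49 at 6 months and fell by 0.35 ± 0.12 (SE; adjusted p = 0.043). The difference was -0.01 in replicates 1 to 3 and -0.70 in replicates 4 to 6. *Sdf2l1*, an ER cofactor, fell by 0.63, made up of -0.16 and -1.10 in the same sets. *Atf4* rose by 0.16 and *Xbp1* changed by -0.08 (adjusted p = 0.59). The list median was -0.05 in replicates 1 to 3 and -0.26 in replicates 4 to 6, and no member fell past the threshold in the first set against 16 in the second, where 1275 and 2517 genes were called over the whole table. The difference between the sets was not tested.

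Genes of thyroid hormone signaling were in part lower. Of 16 genes 6 fell (37.5%, against 12.8% of all genes) and 3 rose (18.8%, against 14.0%), with a median of -0.18. The list includes *Ttr*, which was not called and is described with the choroid plexus. *Hr* and *Klf9*, both direct targets of the receptor, fell by 0.57 and 0.36, *Ky* fell by 0.76 and *Itih3* rose by 0.70 (adjusted p = 7.4e-06). Of 24 cholesterol synthesis genes 6 rose (25%, against 14.0% of all genes) and 3 fell (12.5%, against 12.8%), with a median of 0.01. *Acat2* changed by 0.01 (adjusted p = 0.95), *Insig1* rose by 0.41 and *Ebp* fell by 0.30. The sterol response element core TCACNCCAC was in none of the 16 promoter windows of that list. It was in 1.44% of the 27025 genes with a window, whether tested here or not. A motif that rare can be missing from 16 windows of any genes, so its absence says nothing about this list.

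Clustered protocadherins, the surface proteins that give neurons their combinatorial identity, rose in part: 19 of 58 were higher and 3 lower, or 7 lower without 6 month replicate 6, with a median of 0.09. In the main fit 32.8% were higher and 5.2% lower, against 14.0% and 12.8% of all genes. All called rises lay in the beta and gamma clusters. Most genes of the alpha cluster had a negative change, which for most of them was not called. *Pcdhb3* rose most, by 0.63 (adjusted p = 0.0041), *Pcdhb18* fell most, by 0.29, and *Pcdha1* and *Pcdha10* changed by -0.07 and 0.01. Members of the alpha and gamma clusters share their last exons, so reads there could not be assigned to 1 member with certainty. Of 80 cytosolic ribosomal protein genes 26 rose (32.5%) and 2 fell (2.5%), with a median of 0.09, and without 1 month replicate 3 46 rose. *Rpl14* rose most (0.26), *Rpl29* fell (0.14 lower), and *Rpl10* and *Rpl10a* changed by 0.09 and 0.04. Of 78 nuclear genes of oxidative phosphorylation 4 rose and 12 fell (median -0.05), and the 20.5% called were below the 26.8% of all genes. They ranged from *Uqcr11*, 0.32 lower, to *Atp5s*, 0.22 higher. The ATP synthase subunit *Atp5a1* rose by 0.09 and *Atp5b* changed by 0.07 (adjusted p = 0.12). Of 32 imprinted genes 6 rose and 2 fell, and the 25% called were close to the 26.8% of all genes. *H19*, a fetal noncoding RNA, fell by 0.98 (adjusted p = 0.0036), *Grb10* rose by 0.29, and *Igf2*, the neighbour of *H19*, changed by -0.16 (adjusted p = 0.74).

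Markers of tissue next to the cortex and of blood were examined because a dissected cortex can include them. Of 18 striatal genes 0 were called by limma and 0 had an unadjusted p under 0.05, and *Drd1* and *Ppp1r1b* changed by -0.02 and -0.12. Of 14 hippocampal genes 5 rose (35.7%, against 14.0% of all genes), *C1ql2* most (0.56, adjusted p = 0.074). In the same list 1 fell, *Pdzd2* (0.15 lower), while *Prox1* and *Dsp* changed by -0.0038 and 0.14. Of 22 genes of thalamus, hypothalamus, midbrain and hindbrain *Lhx9* rose by 0.45 and *Tph2* fell by 0.62, and *Tcf7l2* changed by 0.05. Among 16 olfactory bulb and cerebellum genes *Zic2* rose by 0.49 (adjusted p = 0.059), and *Pcp2* and *Eomes* changed by -0.31 and -0.17. In the choroid plexus and ependyma list, 16 of 18 genes had a negative change and the median was -0.51, yet only 2 were called, among them *Folr1* (1.41 lower, adjusted p = 0.035), and *Ttr* changed by -1.92 ± 0.83 (adjusted p = 0.12). The count called lower was 8 without 1 month replicate 3, 5 without 6 month replicate 3 and 4 without 6 month replicate 6. Of 12 blood genes 6 fell (50%, against 12.8% of all genes) and none rose. *Hba-a1* fell by 0.63, *Hbb-b1* by 0.79 and *Hbb-b2* by 1.03, close copies whose reads may be shared. Each of these globin genes lost its call in replicates 1 to 3 alone, a fit that holds fewer mice. The part of these tissues in the other results was not tested.

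Changes in the WT mice were given the same description. In the same test on the 12 WT mice, 4242 of 17255 genes (24.6%) were called. Across the 17070 genes tested in both genotypes, the changes of HET and WT had a Pearson r of 0.647, a description over genes, which are not independent. Of the HET calls 61.1% were also called in WT, and of the WT calls 66.4% were also called in HET. The direction was the same in WT for 95.8% of HET calls and for 76.2% of all genes, and for 81 of the 83 genes called with a change of at least 1. The WT median was -0.36 for the myelin list, -0.34 for precursors and newly formed oligodendrocytes, -0.62 for the cell cycle and -0.21 for young neurons. For 7 of the 37 lists the WT median had the opposite sign. The widest such gaps were those of the choroid plexus (-0.51 in HET, 0.26 in WT), the striatum (-0.10 and 0.21) and the pericyte, smooth muscle and fibroblast list (0.15 and -0.14).

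**Figure D4:**
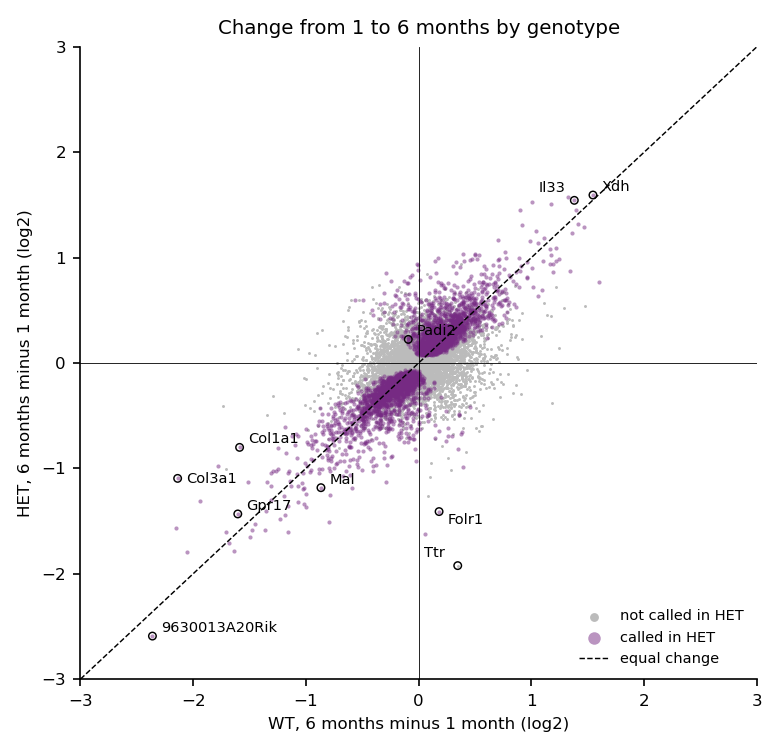
Each point is a gene, with its difference between 6 months and 1 month (log2) in WT on the x axis and in HET on the y axis, purple when called in HET, and the dashed line marks equal change. Most called genes lie along the line (r = 0.647 over all genes), and *Ttr* and *Folr1* lie below it and *Col3a1* and *Col1a1* above it without a called difference between the genotypes.

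The difference between the genotypes in this change was tested directly, and limma called none of 17236 genes (0%), while 797 (4.62%) had an unadjusted p under 0.05 and the lowest adjusted p was 0.73. The median SE of the difference was 0.11 and the median distance from the estimate to the end of its 95% interval 0.22. This interval takes no account of the number of genes tested. Estimated differences above that size also went uncalled, as for *Padi2* and *Mal* below, so the absence of calls does not exclude differences of that size. *Padi2* was picked for its low p and *Mal* after its values were seen, so their estimates may be too large. The genes with the lowest p were *Gm15972*, which lay near that low end of the scale (-1.56, unadjusted p = 7.7e-05), *Ndufa13*, a subunit of respiratory complex I (0.27, unadjusted p = 0.00017), and *Padi2*, a peptidylarginine deiminase of oligodendrocytes. *Padi2* rose by 0.22 in HET and changed by -0.09 in WT, a difference of 0.32 (95% interval 0.17 to 0.47, unadjusted p = 0.0002, adjusted p = 0.73). The myelin gene *Mal* fell by 1.18 in HET and by 0.87 in WT (difference -0.32, 95% interval -0.51 to -0.13, adjusted p = 0.999). *Col3a1* fell by 1.09 in HET and 2.14 in WT (difference 1.04, 95% interval 0.15 to 1.93, adjusted p = 0.999). For *Ttr* the difference was -2.27 (95% interval -5.10 to 0.56, adjusted p = 0.999).

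**Figure D5:**
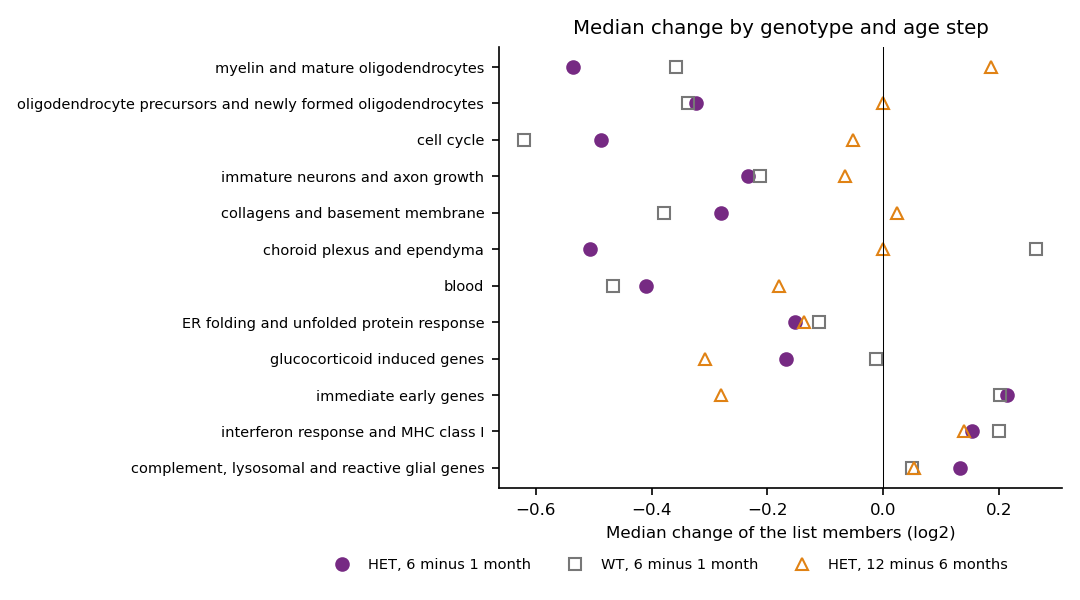
The x axis gives the median change of the tested members (log2) for 12 gene lists, in HET from 1 to 6 months (circles), in WT from 1 to 6 months (squares) and in HET from 6 to 12 months (triangles). The cell cycle list moved from -0.49 in the first step to -0.05 in the second, and the choroid plexus list stood at -0.51 in HET and 0.26 in WT.

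From 6 to 12 months the HET cortex changed far less. The same test called 592 of 17254 genes (3.43%), 185 higher (1.07%) and 407 lower (2.36%), in a comparison that uses the 6-month mice again, so its values are given only beside those of the first step. The myelin list, with a median of -0.54 in the first step, had one of 0.19 in the second, with 8 of 28 genes higher and none lower. *Mbp* changed by 0.17 (adjusted p = 0.21) and *Enpp6* by 0.17 (adjusted p = 0.54), while *Gpr17* fell by a further 0.52 (adjusted p = 0.0043). *Il33* rose by a further 0.23 (adjusted p = 0.047) and *Neat1* by 0.51 (adjusted p = 0.017). The median of the cell cycle list was -0.05 in the second step. Of the 31 immediate early genes 8 fell and none rose, and of the 30 ER genes 11 fell and none rose, *Hspa5* by 0.58 (adjusted p = 0.0091) and *Xbp1* by 0.37 (adjusted p = 0.014).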

How the data were processed

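PolyA RNA libraries of 48 cortices were sequenced by the authors with stranded paired-end reads per the study's methods, although the labels name a kit that does not mark strand, so reads of genes overlapping on opposite strands are uncertain. The authors aligned and quantified the reads (STAR 2.5.2b, Salmon 0.11.3, mm9) and deposited DESeq2 variance-stabilized values on the log2 scale, with a batch effect removed; counts were not used here. Replicates 1 to 3 and 4 to 6 were taken as the 2 batches from their equal means, since the labels name no batch. The base value of 2.1433, taken as that of a gene without reads, holds 15.7% of the log2 values, and 6.06% lie below it, down to 1.23. The scale compresses the changes of low genes. Read depth, listed by the study, entered 1 alternative as a covariate.

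Each gene with a mean over the 12 HET mice at least 0.5 above the base value was tested with limma 3.58.1 (R 4.3.3, trend in the variance prior, Benjamini-Hochberg, called at an adjusted p under 0.1). The study's own model on counts was not repeated. The WT contrast, the HET contrast of 12 against 6 months and the genotype by age interaction over 24 mice used the same settings and a filter over their own samples. Errors after ± are standard errors of the difference (n = 6 and 6). The fits were tested on simulated data. Gene coordinates are from GENCODE vM1 (mm9), and promoter sequences from RefSeq (GRCm38.p6).

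The comparison and the 37 gene lists were chosen with earlier results of these data known, and no list was tested. Named genes are the 12 largest changes each way among called genes with non-overlapping mice and a mean at least 1.5 above the base value, the first 2 genes of each list, its called genes with the largest rise and fall, *Chd8*, *Usp11*, *Wars2* and the 3 lowest p of the interaction, except 4 list genes that are not reported here. The other list members named (*Mog*, *Mal*, *Cldn11*, *Qdpr*, *Anln*, *Ndrg1*, *Car2*, *Mbnl1*, *Bmp4*, *Marcksl1*, *Draxin*, *Cd24a*, *H2-Aa*, *H2-Ab1*, *Cd74*, *Nr4a1*, *Junb*, *Fosb*, *Dusp1*, *Tet1*, *Tet3*, *Col4a2*, *Sparc*, *Serpinh1*, *Hspa1b* and *Tef*) were chosen after their values were seen. Alternatives changed the filter, variance prior, scaling, threshold, covariates, samples and pairing.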

Additional observations from a re-analysis of the deposited data

Results flagged for a closer look

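In 28 of 356 groups of 6 mice, counted over the genes named above, 1 mouse stood further from the others than Dixon's criterion allows, a rule that flags about 1 in 20 groups by chance. Each value is given with that of the nearest other mouse.

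Oligodendrocyte genes made up several of these. At 1 month, replicate 1 was lowest for *Enpp6* (8.70, next 9.26), and replicate 3 for *Apod* (10.70, next 11.23). At 6 months, replicate 4 was lowest for *Enpp6* (7.11, next 7.55), *Mbp* (15.84, next 16.04) and *Cldn11* (11.01, next 11.34), and replicate 5 highest for *Gpr17* (10.68, next 10.44).

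The 6 month replicate 2 was highest for *C4b* (10.03, next 9.28), *H2-Ab1* (6.33, next 5.48), *Col3a1* (7.07, next 6.17), *Ppl* (6.44, next 5.99), *Pcdhb3* (8.14, next 7.85) and *Eomes* (7.99, next 5.24), and lowest for *Draxin* (4.37, next 4.71). The 6 month replicate 4 was highest for *Dnmt3a* (11.42, next 11.22) and lowest for *Uhrf1* (4.05, next 4.62). The 6 month replicate 1 was highest for *Top2a* (6.08, next 5.57) and lowest for *Kcnip3* (11.36, next 11.60), replicate 6 highest for *Syt1* (15.87, next 15.69) and *Pcdha10* (8.73, next 8.45), and replicate 5 highest for *Atp5s* (8.82, next 8.55).

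The 1 month replicate 3 was lowest for *Serpinh1* (9.02, next 9.63) and *Hbb-b2* (6.59, next 7.16), beside its low vessel markers, and highest for *Rpl14* (11.29, next 11.12). The 1 month replicate 1 was highest for *Exoc3l4* (4.90, next 4.15) and lowest for *Bhlhe41* (9.53, next 9.97). The 1 month replicate 2 was highest for *Acat2* (9.58, next 9.32), replicate 5 highest for *Pcdhb18* (8.56, next 8.20) and replicate 6 lowest for *Ifi44* (4.70, next 4.99).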

How the results depend on the processing

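The count of 4609 called genes was 1275 (624 higher, 651 lower) in replicates 1 to 3 alone and 2517 (1176 higher, 1341 lower) in replicates 4 to 6 alone, fits that hold fewer mice. Of the genes called in the first set, 97.7% had the same direction in the second, and of those called in the second 92.8% had it in the first, against 70.2% of all genes. Every other setting kept the counts within 1.5 times: 3374 in one fit of all 48 samples, 3435 at an adjusted p under 0.05, 4379 without a filter and 4748 after quantile normalization. Leaving out 1 mouse gave 3940 to 4436 (2070 to 2323 higher, 1858 to 2145 lower). For the difference between genotypes limma called 0 genes under every setting run, leaving out each mouse included (0 to 0).

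No called gene named here changed direction. Of 138 called genes, 124 kept the call without any 1 mouse. The other 14 (*Ndrg1*, *Lama2*, *Col1a1*, *B2m*, *Sox9*, *Aqp4*, *Scn1a*, *Nr4a1*, *Arc*, *Npas2*, *Atp5s*, *C1ql2*, *Pdzd2* and *Zic2*) lost it without at least 1, with a highest adjusted p between 0.10 and 0.18, and 10 of them did so without 1 month replicate 3. Of the 138, 24 lost the call in one fit of all 48 samples (*Slc17a7* among them), 57 in replicates 1 to 3 alone and 34 in replicates 4 to 6 alone. The replicate block gave 4606 calls, ended no call of a named gene and added 4. Nothing ties same-numbered mice of the 2 ages together: their deviations correlated at -0.134 to 0.120, and 3 of 12 mice correlated best with their own number. Low genes near the base value and the 6 mice per group limit the precision.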
